A study of Mus musculus with 4 samples.

Results

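Neurotrophic factors and their receptors were examined in airway smooth muscle cells of adult mouse lung after treatments meant to reduce retinoic acid signalling. The listed genes were Ret, Gfra1, Gfra2, Gdnf, Musk, Ptn, Bdnf, Ntf3 and Ntrk2. A gene was taken as measured where the deposited table holds a probe set that the platform annotation pairs with its symbol, which held for 8 of the 9, among 23185 genes named in all. Ntf3 was not analysed here. Ret, Musk and Ptn were picked because they stood higher after the antagonist, so that comparison is a description for them and carries no test. Of the 8 genes, 7 passed a filter on low values, which kept the 12395 genes whose highest value on the 4 arrays reached 6.05, the median of all named values. Bdnf lay just below it.

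The cells were sorted by flow cytometry as green and not red from mice of genotype Acta2-hrGFP;Cspg4-DsRED, in which the green reporter follows the smooth muscle actin gene and the red one the pericyte gene Cspg4. BMS mice ate powdered, vitamin A-sufficient food for 3 days mixed with a pan retinoic acid receptor antagonist at 5 mcg per gram, and CTR mice ate the same food with the corn oil vehicle. VAD mice ate a diet with under 0.1 IU of vitamin A per gram, for a time that the protocol gives both as 3 days and as 5 days, and VAS mice ate a normal diet with 15 IU per gram. Each condition was measured on 1 Affymetrix array with the RNA of 3 mice pooled, so no group has a replicate and the spread between mice is unknown. Every value below is a log2 expression level, or a difference of log2 levels between 2 arrays, and "higher" and "lower" describe these arrays. CTR and VAS were both vitamin A-sufficient but differed in experiment, food form, vehicle and pool of mice.

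Neurotrophic factors are secreted proteins that keep nerve cells alive and guide their growth, and muscle and connective tissue cells are among their sources. GDNF binds a membrane-anchored co-receptor of the GFRA family, and the pair activates the receptor tyrosine kinase RET. BDNF acts through the kinase TrkB, encoded by Ntrk2. MuSK is the kinase that gathers acetylcholine receptors beneath the motor nerve terminal of skeletal muscle, after agrin binds its partner LRP4. Pleiotrophin, encoded by Ptn, is a heparin-binding growth factor that binds the receptor phosphatase encoded by Ptprz1. Retinoic acid receptors bind DNA as partners of RXR, most often at repeats of a hexamer close to AGGTCA.

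Start-site windows are shown for Musk and Ptn, because both stood over 2-fold higher after the antagonist. Those of Gfra1 and Gdnf are shown as the genes past the filter whose windows hold the hexamer or a variant. Each window runs from 250 bases before to 50 bases after a RefSeq start site in GRCm38.p6 and is written 5′ to 3′ on the strand of the gene, with matches to the hexamer in capitals. Ret and Gfra2 have no entry in the table used.
Musk, chr4:58285712-58286011, plus strand: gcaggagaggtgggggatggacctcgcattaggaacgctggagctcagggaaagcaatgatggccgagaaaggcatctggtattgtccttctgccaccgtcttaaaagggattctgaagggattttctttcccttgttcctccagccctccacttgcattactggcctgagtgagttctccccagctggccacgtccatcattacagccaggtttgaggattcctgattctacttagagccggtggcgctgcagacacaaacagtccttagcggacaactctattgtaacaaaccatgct
Ptn, chr6:36810130-36810429, minus strand: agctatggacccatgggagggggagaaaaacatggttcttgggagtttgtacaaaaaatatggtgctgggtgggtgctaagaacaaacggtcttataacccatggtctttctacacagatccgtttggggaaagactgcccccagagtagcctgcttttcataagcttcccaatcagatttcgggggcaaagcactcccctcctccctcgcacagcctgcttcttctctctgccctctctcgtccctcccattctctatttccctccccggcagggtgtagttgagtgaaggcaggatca
Gfra1, chr19:58455349-58455648, minus strand: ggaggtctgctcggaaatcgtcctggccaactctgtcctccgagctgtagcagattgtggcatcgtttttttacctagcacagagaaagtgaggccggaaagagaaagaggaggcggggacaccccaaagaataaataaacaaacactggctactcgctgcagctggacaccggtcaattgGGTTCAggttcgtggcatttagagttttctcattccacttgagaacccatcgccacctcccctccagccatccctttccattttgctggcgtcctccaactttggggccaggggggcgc
Gdnf, chr15:7809798-7810097, plus strand, the more upstream of 2 windows: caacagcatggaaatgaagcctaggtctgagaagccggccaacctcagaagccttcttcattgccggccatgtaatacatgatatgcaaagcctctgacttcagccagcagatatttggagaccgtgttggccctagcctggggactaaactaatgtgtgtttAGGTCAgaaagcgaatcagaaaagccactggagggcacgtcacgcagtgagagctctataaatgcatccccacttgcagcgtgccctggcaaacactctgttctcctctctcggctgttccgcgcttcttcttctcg
The hexamer AGGTCA was searched on both strands, together with the variant spelled GGGTCA, the variant spelled AGTTCA and the variant spelled GGTTCA. The Gfra1 window holds GGTTCA at position -69 from the start, and the Gdnf window AGGTCA at position -87. Of the 7 windows of Bdnf, 2 hold a match, and the windows of Musk, Ptn and Ntrk2 and the other one of Gdnf hold none. In all, 4 of the 13 windows of these genes hold at least 1 match, beside 43.7% of 32851 windows of all genes. Direct repeats of the hexamer with 5, 2 or 1 bases between occur in 0.0974%, 0.268% and 0.222% of all windows, and none was found in the 13 windows of these genes. A CArG box, the element bound by serum response factor, occurs in 1.63% of all windows and in none of the 13. These matches describe the letters of short windows and not binding.

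The kinase gene Ret (Entrez gene 19713) stood at 6.95 in BMS against 5.88 in CTR, and at 5.74 in VAD against 5.54 in VAS. BMS was the array that stood apart, and Ret lay below the filter value on the other 3 arrays. The difference was 1.07 for BMS minus CTR, or 2.10-fold, and 0.20 for VAD minus VAS. Against VAS in place of CTR, BMS was 1.41 higher.

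Musk (Entrez gene 18198) showed the same order of BMS over the other arrays, at 7.36 in BMS against 5.85 in CTR, and at 6.11 in VAD against 5.92 in VAS. It was 2.86-fold higher in BMS than in CTR, a difference of 1.52, and 0.19 higher in VAD than in VAS. The control arrays were close to each other, with CTR minus VAS at -0.08, so BMS stood 1.44 above VAS as well.

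Ptn (Entrez gene 19242) stood at 7.78 in BMS against 5.96 in CTR, and at 6.24 in VAD against 6.71 in VAS. It was 3.51-fold higher in BMS than in CTR, a difference of 1.81. In the diet experiment VAD minus VAS was -0.47, but VAD minus CTR was 0.27, so the sign there turned with the control array. CTR stood 0.74 below VAS (CTR minus VAS -0.74), so the difference of BMS from VAS was smaller, at 1.07. In pooled RNA, more cells of a kind and more RNA per cell cannot be told apart.

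The co-receptor genes were not among those picked. Gfra1 (Entrez gene 14585), which encodes the main co-receptor of GDNF, stood at 7.46 in BMS against 6.53 in CTR, and at 6.55 in VAD against 6.58 in VAS. The last 3 arrays lay within 0.05 of each other, and BMS was 0.93 above CTR and 0.88 above VAS. Gfra2 (Entrez gene 14586), whose product prefers the related ligand neurturin, stood at 10.07 in BMS against 8.72 in CTR, and at 9.46 in VAD against 9.44 in VAS. For Gfra2 both arrays of the antagonist experiment stood apart from the diet arrays, BMS above them and CTR below. Its difference of 1.36 for BMS minus CTR was 0.63 against VAS, while VAD and VAS differed by 0.01.

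The ligand gene Gdnf (Entrez gene 14573) was not among those picked. It stood at 6.17 in BMS against 6.49 in CTR, and at 6.83 in VAD against 7.25 in VAS. BMS was the lowest array and VAS the highest, and BMS and VAD each lay below their own control, by -0.32 and -0.41. The control arrays differed by more than that, with CTR minus VAS at -0.75, and BMS minus VAS was -1.08. Against CTR in place of VAS, VAD was 0.34 higher, so the lower value in VAD held for its own control and not for the other.

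Among neurotrophin genes, Ntrk2 (Entrez gene 18212) stood at 6.41 in BMS against 5.45 in CTR, and at 6.04 in VAD against 6.11 in VAS. CTR was the array that stood apart: BMS was 0.96 above CTR but 0.30 above VAS, and VAD minus VAS was -0.07. Bdnf (Entrez gene 12064) stood at 5.78 in BMS against 6.03 in CTR, and at 5.84 in VAD against 6.03 in VAS. Its 4 values spanned 0.25, all below the filter value, so no difference of it is counted.

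**Figure D1:**
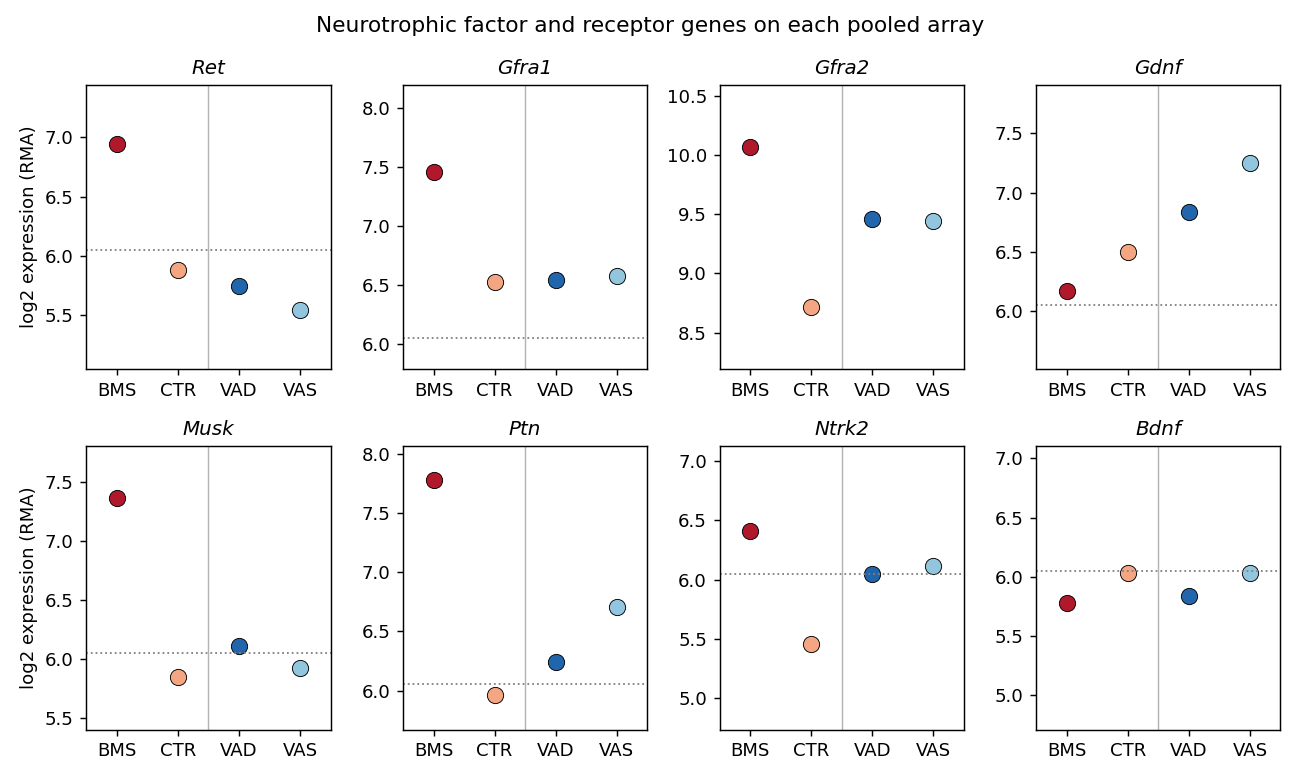
Log2 expression (vertical axis, RMA values) of the 8 genes on the BMS, CTR, VAD and VAS arrays, 1 point per pooled array, with every panel spanning the same height. The dotted line is the filter value of 6.05. BMS is the highest point for Ret, Gfra1, Gfra2, Musk, Ptn and Ntrk2 and the lowest for Gdnf and Bdnf.

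Among the 5 genes that were not picked for being high in BMS, BMS was the highest array for the 3 that encode a receptor or co-receptor (Gfra1, Gfra2 and Ntrk2) and the lowest for the 2 that encode a ligand (Gdnf and Bdnf). This is a description of 5 genes, and Bdnf lay below the filter on every array. It did not extend to all genes of the wider lists. The ligand gene Nrtn was highest in BMS, at 6.44, and the receptor gene Ntrk3 was lowest in BMS, at 10.43. CTR was the lowest array for Gfra1, Gfra2 and Ntrk2. Against VAS in place of CTR, the 3 genes over 2-fold higher in BMS were Musk, Ret and Ptn, which are the 3 picked for their BMS values, so nothing is read from that count beside the 0.565% of all genes that were higher. Gdnf, which was not picked, was over 2-fold lower, as were 1.46% of all genes. Gfra1 stood at 0.88, Gfra2 at 0.63 and Ntrk2 at 0.30 in that comparison, which shares the BMS array with the other.

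**Figure D2:**
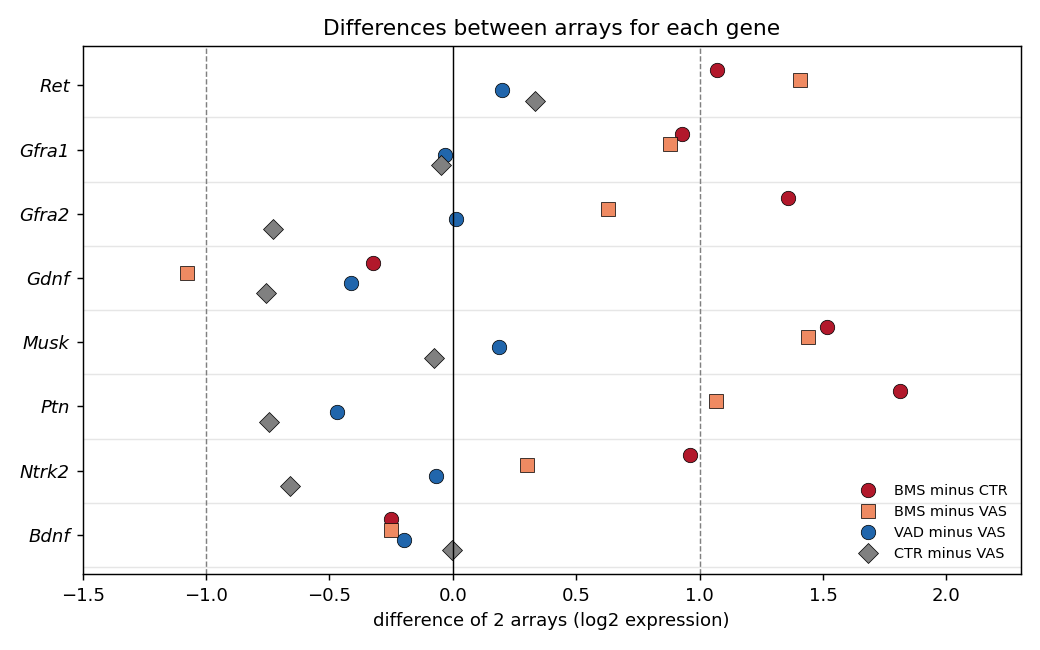
Differences in log2 expression between 2 arrays (horizontal axis) for each gene, with dashed lines at 2-fold. The BMS differences of Ret, Musk and Gfra1 are close to each other against either control, those of Gfra2, Ptn and Ntrk2 are smaller against VAS, and the VAD minus VAS points lie between -0.47 and 0.20.

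In BMS against CTR, 4 of the 7 genes past the filter (Ptn, Musk, Gfra2 and Ret) stood 2-fold or more above CTR and 0 stood 2-fold or more below it. The background over all 12395 genes was 1.07% past 2-fold upward and 0.282% downward. Since 3 of the 4 were picked on this comparison, nothing is read from the count. Ptn ranked 28th from the top, Musk 51st, Gfra2 66th and Ret 122nd, with Ntrk2 145th and Gfra1 155th just outside 2-fold. Near the threshold, Zfp385a and Htra3 stood just inside at 1.02 and 1.01, and P2ry1 and Abra just outside, both at 1.00 after rounding.

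In VAD against VAS, which the picking of Ret, Musk and Ptn did not use, 0 of the 7 were at least 2-fold apart in either direction. Ret is among the 7 through its BMS value alone, and lay below the filter value on the VAD, VAS and CTR arrays. The background was 0.234% of genes higher and 0.42% lower. The members' median difference was -0.03 and their range -0.47 to 0.20, where the median of all genes was 0.01 and their central 95% ran from -0.55 to 0.50. Ret and Musk, at 0.20 and 0.19, ranked 2314th and 2515th from the top. Ptn and Gdnf, at -0.47 and -0.41, ranked 460th and 648th from the bottom. The values of all 7 genes thus lay inside the central 95% of genes. In CTR against VAS, 0 of the 7 were 2-fold apart, beside 0.323% of all genes higher and 1.71% lower, but 6 of the 7 lay below 0, with a median of -0.66 against 0.003 for all genes.

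**Figure D3:**
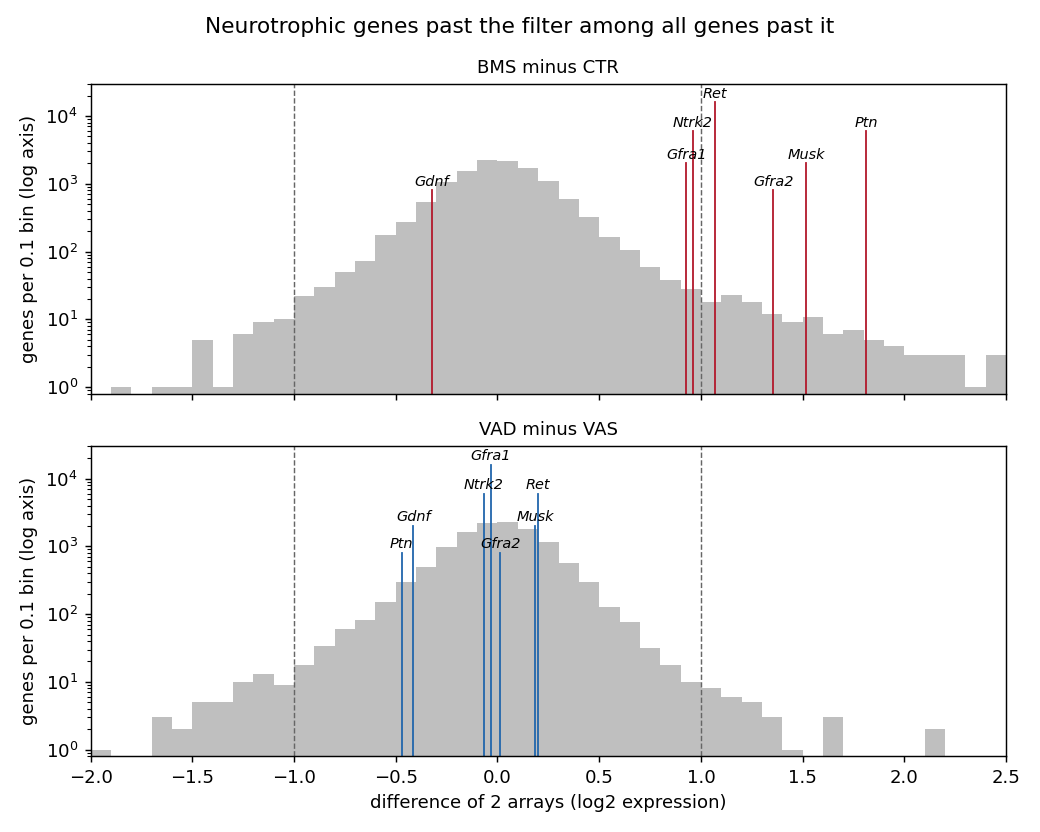
Number of genes past the filter per 0.1 of log2 difference (log axis), for BMS minus CTR above and VAD minus VAS below, with vertical lines at the 7 genes and dashed lines at 2-fold. In BMS minus CTR 6 of the lines lie in the right tail and Gdnf at -0.32. Ret, Musk and Ptn were picked on that comparison, so nothing is read from the 6. In VAD minus VAS all 7 lie within the bulk of genes.

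The design allows a test where VAD and BMS are set together against VAS and CTR. It was a limma fit with the experiment as a block, which leaves 1 residual degree of freedom, and Benjamini-Hochberg adjustment ran over all 12395 genes. That degree of freedom holds the disagreement between the diet and the antagonist difference, which limma moderates with the variance of all genes. It cannot separate that disagreement from the spread between mice or pools. The fit called 0 genes at an adjusted p under 0.05 (0% of genes), and 476 had an unadjusted p under 0.05. Among the members that were not picked, Gdnf differed by -0.37 (SE 0.13), lower in 2 of 2 experiments against the control of each, with an adjusted p of 1 in the limma fit. Gfra2 differed by 0.69 (SE 0.33), Gfra1 by 0.45 (SE 0.25) and Ntrk2 by 0.45 (SE 0.27), all with an adjusted p of 1 in the limma fit. The values for Gfra2, Gfra1 and Ntrk2 average experiments that differed. BMS minus CTR was 1.36 for Gfra2, 0.93 for Gfra1 and 0.96 for Ntrk2. VAD minus VAS was 0.01 for Gfra2, -0.03 for Gfra1 and -0.07 for Ntrk2. The adjusted p-values do not show that the genes were unaltered.

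Of the 12 GDNF family ligand, receptor and co-receptor genes, 9 passed the filter, and 7 of these stood higher in BMS than in CTR, with a list median of 0.42 beside 0.01 for all genes. The 2 at least 2-fold higher were Gfra2 and Ret, and 0 were 2-fold lower, beside 1.07% and 0.282% of all genes. Ret was picked on this comparison and passed the filter through its BMS value alone, so nothing is read from its place in these counts. Against VAS in place of CTR, 4 of the 9 were higher in BMS, with a list median of -0.02. In CTR minus VAS 1 of the 9 stood above 0, with a list median of -0.21. Ncam1, a cell adhesion molecule that can also bind GDNF with a co-receptor, stood at 6.94 in BMS against 6.25 in CTR, and at 6.95 in VAD against 7.25 in VAS. Its 0.70 for BMS minus CTR lay above the central 95% of all genes, which ended at 0.65, but CTR was the lowest array, 2-fold below VAS, and BMS minus VAS was -0.30. Sdc3, a heparan sulphate proteoglycan that binds GDNF, was 0.42 higher in BMS than in CTR and differed from VAS by -0.03. The ligand genes Nrtn and Artn were 0.29 and 0.19 higher in BMS, and the co-receptor gene Gfra4 differed by -0.11. Pspn, Gfra3 and Gfral lay below the filter on every array. In VAD, 0 of the 9 were 2-fold apart, with a median of -0.004, and the differences reached -0.44 for Gfra4 and 0.23 for Artn.

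Genes that act downstream of RET were read beside it. Of 18 adaptor and feedback genes past the filter, 0 were 2-fold apart in either experiment, where 1.07% and 0.282% of all genes were higher and lower in BMS minus CTR, and 0.234% and 0.42% in VAD minus VAS. At those shares a count of 0 is near the background, here and in the lists that follow. The medians were 0.07 in BMS minus CTR and 0.14 in VAD minus VAS. In BMS minus CTR the differences ran from -0.27 for the adaptor gene Gab2 to 0.39 for Dok1. The feedback inhibitor genes Spry1, Spry2 and Spry4 differed by 0.10, 0.16 and 0.19, and Dusp6, which switches off ERK, by 0.15. Etv5, a transcription factor gene that RET signalling induces in kidney, differed by 0.16. In VAD minus VAS, Dok5 differed by -0.45, Spred1 by -0.36, Dok1 by 0.36 and Shc1 by 0.34.

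The wider neurotrophin list held 10 genes past the filter, of which 0 were 2-fold apart in BMS or in VAD. Ntrk3, which encodes TrkC, stood at 10.43 in BMS against 10.65 in CTR, and at 10.52 in VAD against 10.50 in VAS. Pcsk6, a proprotein convertase gene, stood at 9.03 in BMS against 8.29 in CTR, and at 7.89 in VAD against 8.30 in VAS. Its BMS value was the highest and its VAD value the lowest of the 4. The sortilin family receptor gene Sorcs2 was 0.68 higher in VAD and 0.07 higher in BMS. Ngfr, the p75 neurotrophin receptor gene, and Ntf5 lay below the filter on every array.

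The genes of agrin and LRP4, the partners of MuSK, each differed by -0.06 in BMS minus CTR. Of 10 agrin and postsynaptic genes past the filter, the 1 at least 2-fold higher in BMS was Musk, which was picked on it, 0 were 2-fold lower, and the median was 0.06. Agrn stood at 8.83 in BMS against 8.89 in CTR, and at 8.77 in VAD against 8.76 in VAS. Lrp4, the agrin receptor gene, stood at 8.27 in BMS against 8.34 in CTR, and at 7.75 in VAD against 7.39 in VAS, so it separated the experiments more than the treatments. Chrnb1, a muscle acetylcholine receptor subunit gene, was 0.55 higher in BMS and 0.66 higher in VAD, while Ache, encoding acetylcholinesterase, differed by -0.55 and -0.05. The other receptor subunit genes Chrna1, Chrnd, Chrne and Chrng lay below the filter on every array, and Dok7 and Rapsn differed by -0.15 and 0.10 in BMS.

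Ptn and its receptor gene Ptprz1 differed in opposite directions in each experiment against its own control. Ptprz1 stood at 6.97 in BMS against 7.47 in CTR, and at 8.55 in VAD against 7.59 in VAS. It was therefore lowest in BMS, where Ptn was highest, and highest in VAD. Against CTR, VAD was higher for both, by 0.27 for Ptn and 1.08 for Ptprz1. Midkine, encoded by Mdk and the closest relative of pleiotrophin, differed by 0.28 in BMS minus CTR and by -0.21 in VAD minus VAS. Of the 12 genes of this list past the filter, the picked gene Ptn was the 1 at least 2-fold higher in BMS and 0 were 2-fold lower, with a median of 0.19. Itgb3, an integrin subunit gene, was 0.47 higher in BMS and 0.90 higher in VAD. Alkal1, a ligand gene of the kinase ALK, differed by -0.71 in BMS and by 0.40 in VAD, and Alk itself lay below the filter.

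**Figure D4:**
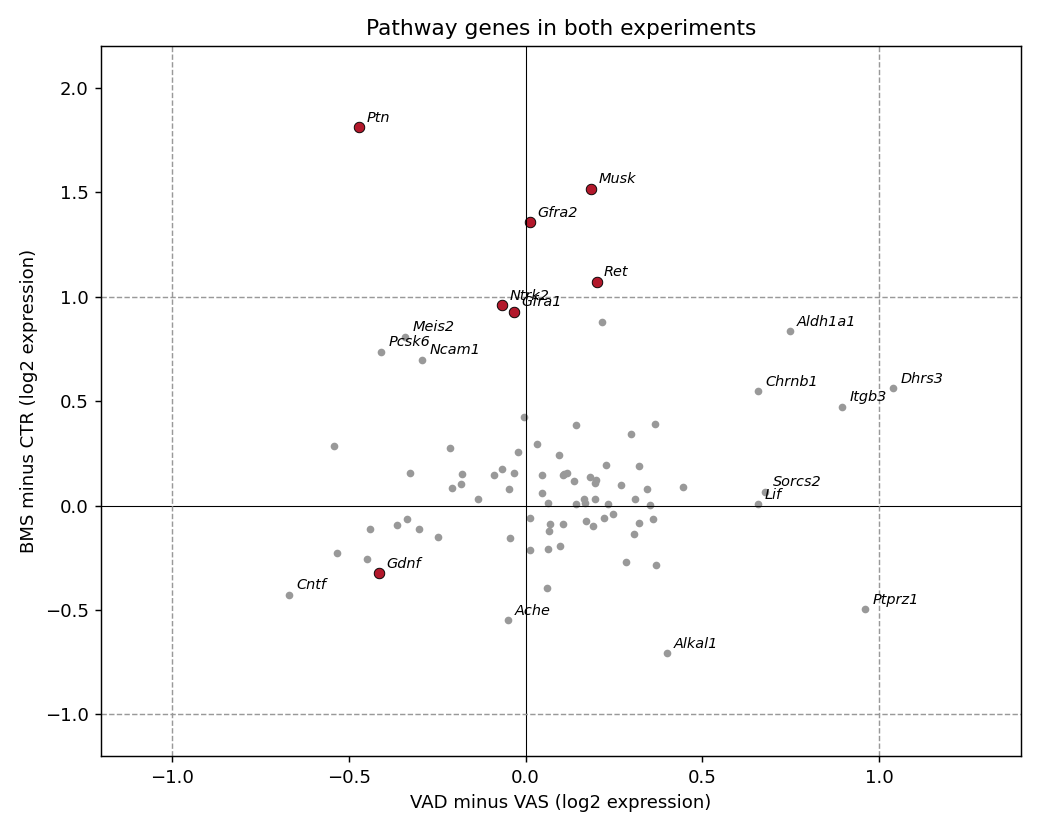
Differences in log2 expression in the diet experiment (VAD minus VAS, horizontal) and the antagonist experiment (BMS minus CTR, vertical) for the pathway genes past the filter, with the 7 members in red and dashed lines at 2-fold. Ptn lies at the upper left and Ptprz1 at the lower right, and Ret, Musk, Gfra1, Gfra2 and Ntrk2 lie near the vertical axis.

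In the list of ciliary neurotrophic factor relatives and other factors, 0 of 14 genes were 2-fold apart in either experiment. Cntf was lower in both, by -0.43 in BMS and -0.67 in VAD, and Cntfr, its receptor gene, was higher in both, by 0.34 and 0.30. Lif, a cytokine of the same receptor family, was 0.66 higher in VAD and 0.01 in BMS. Nrg1 stood at 5.63 in BMS against 5.91 in CTR, and at 7.37 in VAD against 7.00 in VAS, so the experiments lay further apart than the treatments. Of 14 retinoic acid response and metabolism genes past the filter, 0 were 2-fold apart in BMS, and Dhrs3, a retinaldehyde reductase gene, was the 1 in VAD at 1.04. Aldh1a2, which makes retinoic acid, was 0.88 higher in BMS and 0.22 higher in VAD, and Aldh1a1 0.83 and 0.75 higher. Rarb differed by 0.16 in BMS and -0.03 in VAD, Cyp26b1 by 0.12 and 0.14, and Rdh10 by -0.23 and -0.53. Of the 14 genes, 10 stood above 0 in BMS minus CTR and 10 in VAD minus VAS. Whether retinoic acid signalling fell in these cells was not tested.

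Other genes with the profile of a member were sought by the Euclidean distance between 4 array values, each gene centred on its own mean, over 11496 genes. The nearest to Ret were Tll2, P2ry1 and Bmpr1b, at distances of 0.15, 0.16 and 0.19. The nearest to Musk were Abca8b, Hmcn2 and Abca9, at 0.11, 0.26 and 0.27. The nearest to Ptn were Serinc2, Fez1 and Nova1, at 0.21, 0.22 and 0.25, and Serinc2 too reached the filter value in BMS alone. Among the members, Ret ranked 8th from Musk at 0.36, but both were picked for their BMS values, so nothing is read from that rank. Counted from Ret, Gfra1 ranked 23rd at 0.39, Ptn 592nd, Gfra2 1061st, Ntrk2 2109th and Gdnf 11297th at 1.83. Counted from Musk, Gfra1 ranked 22nd, Gfra2 83rd, Ntrk2 267th and Gdnf 11311th. Counted from Ptn, Gfra1 ranked 61st, Gfra2 48th, Ntrk2 136th and Gdnf 11238th. Ret, Musk and Ptn were each picked for a high BMS value, so nothing is read from which of them a gene lay nearest. Each distance rests on 4 arrays.

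Markers of other cells were set beside these values. Acta2, the gene of the sorting reporter, stood at 11.95 in BMS against 11.98 in CTR, and at 12.12 in VAD against 11.96 in VAS, and Myh11, smooth muscle myosin, at 11.18 in BMS against 11.34 in CTR, and at 11.56 in VAD against 11.25 in VAS. All 14 airway smooth muscle markers past the filter were lower in BMS than in CTR, with a median of -0.19 and 0 of them 2-fold lower. Cspg4, whose reporter was sorted against, stood at 7.98 in BMS against 8.08 in CTR, and at 8.22 in VAD against 7.71 in VAS.

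Markers of fibroblasts, and most of those of endothelium, were higher in BMS than in CTR. All 16 fibroblast markers were, 5 of them at least 2-fold, beside 1.07% of all genes, with a median of 0.50. Their summed level was 14.90 in BMS against 14.48 in CTR on the log2 scale, and 14.67 in VAD against 14.72 in VAS. Cd34 stood at 10.72 in BMS against 9.01 in CTR, and at 10.22 in VAD against 10.38 in VAS, and Pdgfra at 9.64 in BMS against 8.57 in CTR, and at 9.38 in VAD against 8.96 in VAS. Against VAS in place of CTR, 12 of the 16 fibroblast markers were higher in BMS, with a median of 0.22. At least 2-fold higher were 0 of the 16, beside 0.565% of all genes, and the differences ran from -0.92 for Pi16 to 0.93 for Col3a1. In CTR minus VAS the same list had a median of -0.38, with 5 of 16 genes at least 2-fold lower, beside 1.71% of all genes. Gfra2, Gdnf, Ptn and Ntrk2 differed in CTR minus VAS by -0.73, -0.75, -0.74 and -0.66. Ret, Musk and Gfra1 differed there by 0.34, -0.08 and -0.05. The part of fibroblast RNA in the values of the members was not tested.

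Among endothelial markers, 8 of 10 past the filter were higher in BMS than in CTR, with a median of 0.18, and Tek, an angiopoietin receptor gene, was 1.42 higher. Among macrophage and monocyte markers 4 of 7 were higher, with a median of 0.06, led by Ly6c2 at 1.17 and C1qa at 0.86. Cd68, Mrc1 and Cx3cr1 differed by -0.37, -0.12 and -0.02. Among alveolar epithelial markers 3 of 5 were higher, with a median of 0.03, and Sftpc, a surfactant protein gene, was 1.82 higher. Ager and Sftpb differed by -0.20 and -0.06. Sftpc, Ly6c2, C1qa and Tek were lower in CTR than in VAS, and CTR was the lowest array for each. CTR minus VAS was -3.54 for Sftpc, -1.86 for Ly6c2, -1.01 for C1qa and -0.73 for Tek. Against VAS, BMS differed by -1.71 for Sftpc, -0.70 for Ly6c2, -0.16 for C1qa and 0.69 for Tek. Over all markers measured, the summed endothelial level on the log2 scale was 10.93 in BMS against 10.59 in CTR, and 10.79 in VAD against 10.66 in VAS. The alveolar sum was 10.33 in BMS against 9.74 in CTR, and 10.42 in VAD against 11.49 in VAS, and the macrophage sum 10.31 in BMS against 10.02 in CTR, and 10.65 in VAD against 10.84 in VAS. The median of the lymphocyte and granulocyte list was -0.02 in BMS minus CTR and -1.07 in CTR minus VAS, and 2 of 11 pericyte and vascular smooth muscle markers were higher in BMS, with a median of -0.26. The part of these cells in the values of the members was not tested.

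Nerve and striated muscle markers moved in both directions. Of the 3 Schwann and glial markers past the filter, Cnp was 0.65 higher in BMS than in CTR and 0.67 above VAS, S100b differed by -0.07 and Fabp7 by -0.89. Sox10, the defining transcription factor gene of Schwann cells, stood at 5.30 in BMS against 5.50 in CTR, and at 5.26 in VAD against 5.14 in VAS, below the filter on every array, as were 9 of the 12 Schwann and glial markers measured. Their summed level was 9.79 in BMS against 9.90 in CTR, and 9.80 in VAD against 9.90 in VAS. Of 6 neuronal markers past the filter, 3 were higher in BMS than in CTR, up to 0.47 for Tubb3, and Syt1 differed by -0.98. The neuronal markers summed to 9.82 in BMS against 9.93 in CTR, and to 9.57 in VAD against 9.95 in VAS. Of 6 skeletal muscle markers past the filter, set beside Musk, 4 were higher in BMS than in CTR, with a median of 0.05, and Tnni2 differed by 0.49, Acta1 by 0.43 and Actn3 by -0.59. All 14 measured summed to 9.77 in BMS against 9.72 in CTR, and to 9.96 in VAD against 10.05 in VAS. Myog, a defining transcription factor gene of skeletal muscle, stood at 5.97 in BMS against 5.96 in CTR. No probe set reads 0 on these arrays, and detection over background is unknown.

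**Figure D5:**
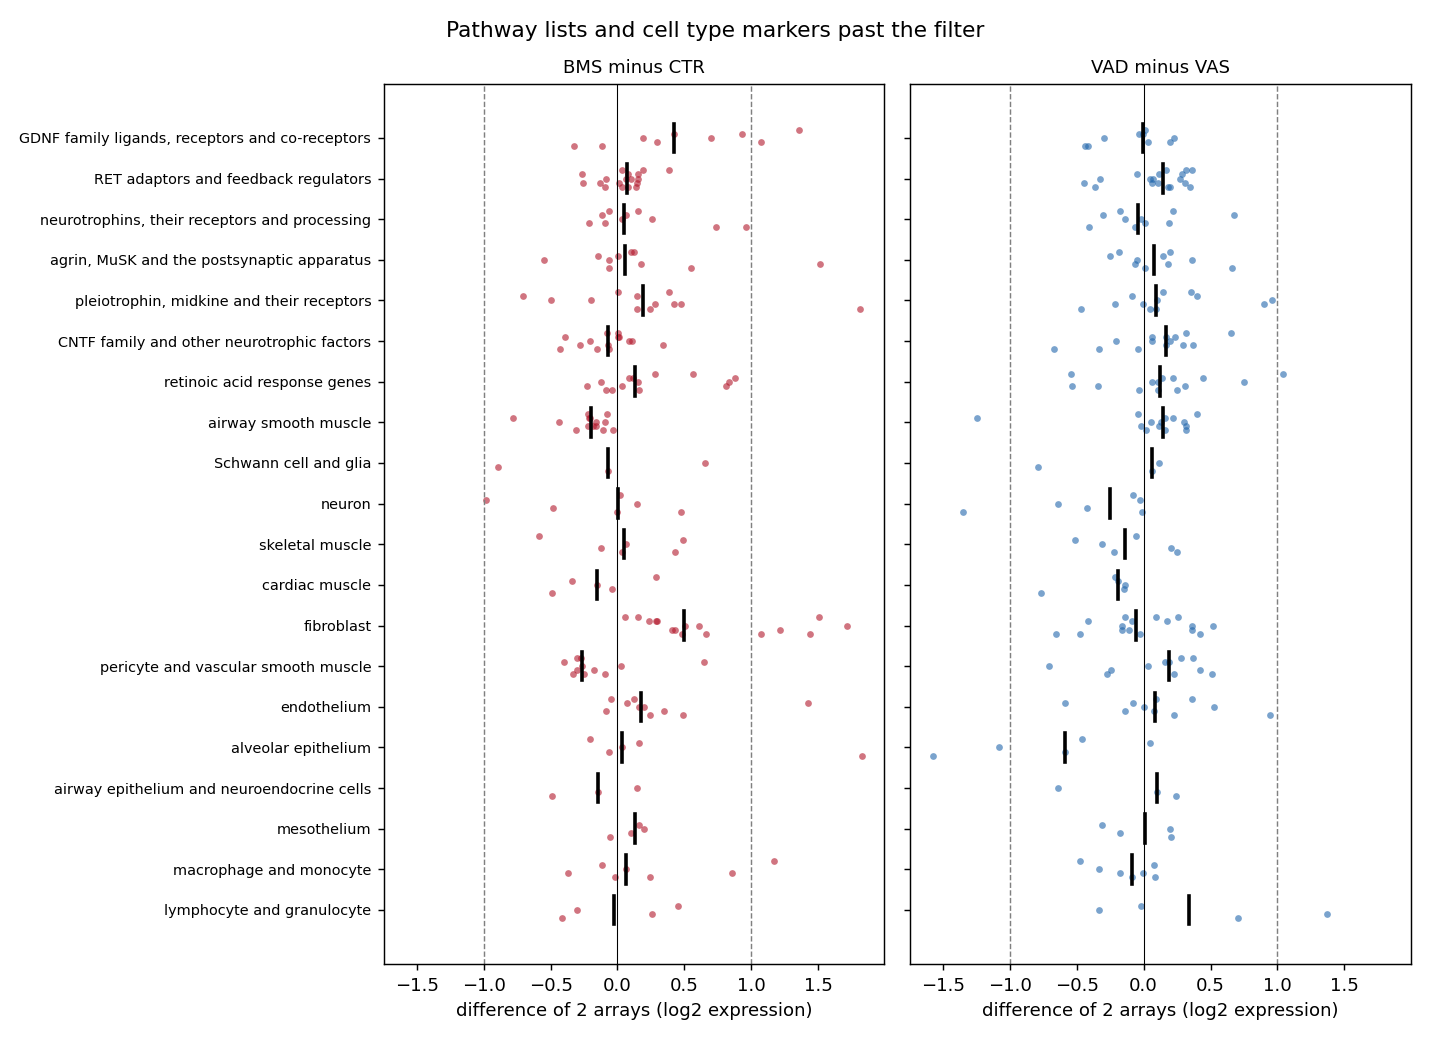
Differences in log2 expression (horizontal axis) of each pathway or marker gene past the filter, by list, for BMS minus CTR and VAD minus VAS, with a black bar at each list's median and dashed lines at 2-fold. All 16 fibroblast markers lie to the right of 0 in BMS minus CTR, and all 14 airway smooth muscle markers to the left.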

How the data were processed

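RNA of sorted airway smooth muscle cells was measured on 4 Affymetrix arrays, 1 pool of 3 mice each, per the labels. The authors deposited log2 values from RMA (background correction, normalization between arrays, probe set summary). The submitters' processing notes name affy 1.36.1 and R 2.15.1, and do not say whether other arrays were normalized with these. Normalization that equalises distributions hides a shift shared by most genes.

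The table holds 25206 probe sets, and 23185 have 1 gene symbol in the platform annotation, all matched by Entrez number to RefSeq (GRCm38.p6). The other 2021 are unnamed and not used. Differences of 2 arrays were counted at 2-fold past the filter. The joint fit used limma 3.58.1 in R 4.3.3 and was tested on simulated data. Other steps used Python 3.11.15, numpy 2.4.6, pandas 2.3.3 and matplotlib 3.10.9. Without replicates, the number of arrays limits the precision.

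Members, lists and rules were chosen with earlier results of these data known. All members were named. A rule took the ligands and receptors of the pathway lists, and up to 4 genes per list and experiment by size of difference. It also took the 3 nearest profiles (no provisional or small RNA genes) and defining markers. Not every gene taken by the rule is named in the text. Other genes were chosen after their values were seen. Alternatives were other filters, thresholds, normalizations, controls and fit settings.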

Additional observations from a re-analysis of the deposited data

Results flagged for a closer look

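Among 44 genes, 9 differed in opposite directions in the antagonist and the diet experiment by at least 1.2-fold in each. The 44 were the members and, per pathway list and experiment, up to 4 genes with the largest differences. The difference between experiments was not tested, since each side is 1 array. Ptn had 1.81 in BMS minus CTR and -0.47 in VAD minus VAS, 2.28 apart. Its receptor gene Ptprz1 had -0.50 and 0.96, -1.46 apart. Meis2, a homeobox gene, had 0.81 and -0.34, and Pcsk6 0.74 and -0.41, both 1.15 apart. Ncam1 had 0.70 and -0.29, 0.99 apart, and Aldh1a3 0.28 and -0.54, 0.83 apart. Alkal1 had -0.71 and 0.40, -1.11 apart, Nrg1 -0.28 and 0.37, -0.65 apart, and Gab2 -0.27 and 0.28, -0.55 apart. With CTR in place of VAS, VAD turned to the same side as BMS minus CTR for 4 of the 9, at 0.27 for Ptn, 0.19 for Meis2, 0.71 for Ncam1 and 0.20 for Aldh1a3.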

How the results depend on the processing

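With 1 array a group, the member values carry no replicate error, and dim genes such as Ret outside BMS, Musk outside BMS, and Bdnf may sit near background. Repeating quantile normalization or using cyclic loess moved none of 48 member differences by more than 0.04. The deposited RMA values were already normalized between arrays, so normalizing them again could move them little. Another control moved 8 of 32 by over 1.5-fold, by up to 0.75. With CTR in place of VAS, the VAD difference turned sign for 5 of the 7 members past the filter. It came to -0.13 for Ret, 0.02 for Gfra1, 0.34 for Gdnf, 0.27 for Ptn and 0.59 for Ntrk2. With VAS in place of CTR, the BMS difference turned for 0 of 7. Ret, Musk and Ptn were picked for high BMS values and both comparisons share the BMS array, so nothing is read from that 0. With a filter at the 75th percentile (7.67), 2 members were at least 2-fold higher in BMS than in CTR (Gfra2 and Ptn), beside 80 of 6552 genes. At 3-fold 1 member was (Ptn), beside 43 of 12395 genes. Ptn was picked on this comparison and reached 7.67 in BMS alone, so nothing is read from its place in these counts. Against VAS, 1 member was 2-fold lower in BMS (Gdnf), beside 181 of 12395 genes. At 1.5-fold 4 members were lower in CTR than in VAS, beside 728 of 12395 genes.

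For all genes the counts follow, higher before lower. BMS minus CTR had 133 and 35; without a filter 67 were lower, with the stricter filter 80 and 14, at 1.5-fold 386 and 234, at 3-fold 43 and 3, against VAS 70 and 181, and with the controls averaged 69 were higher. VAD minus VAS had 29 and 52; without a filter 51 and 92, with the stricter filter 17 and 34, at 1.5-fold 180 and 262, at 3-fold 6 and 8, against CTR 174 were higher, and with the controls averaged 49 and 28. CTR minus VAS had 40 and 212; without a filter 72 were higher, with the stricter filter 23 and 114, at 1.5-fold 330 and 728, and at 3-fold 8 and 58. The cause of the turn with the control was not tested. The limma joint fit called 0 genes in every setting run, among them no block and leaving out each array in turn, with 171 to 938 genes at an unadjusted p under 0.05. The joint fit pairs the 2 arrays of each experiment, and no fit by replicate number was made, since the labels give none.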
